A study of Ovis aries with 15 samples.

Results

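The genes described here code for the collagens and for a set of matrix glycoproteins of the ovine mammary gland. A gene was included if its name in the deposited table was that of a collagen chain, of a matrilin (MATN1 to MATN4) or of FN1, SPARC, POSTN, TNC, DCN, LUM, BGN, FBN1, FBLN1, FBLN2, ELN, THBS1, THBS2, THBS4, LOX or TGFBI, and if it had at least 10 reads on its exons in at least 6 libraries. Of 24691 features, 58 carried such a name and 45 also met the read minimum, 27 of them collagen chains and 18 other matrix proteins. The measurement was RNA-seq of needle biopsies from 2-year-old Romney ewes that had their first lambs, with RNA of several ewes pooled for each library. There were 9 libraries from late pregnancy (gestation day 135, SD 2.4) and 6 from lactation, taken 15 days (SD 1.27) after lambing. The study's methods state that ewes were sampled in late pregnancy and again in lactation, so pools of both states can hold the same ewes. The main tests between states treat the libraries as independent. In both states the pools came from daughters of dams that were fed at 1 of 3 levels from day 21 to day 50 of gestation, namely ad libitum (HM), maintenance (MM) or sub-maintenance (LM), and all dams were then fed at maintenance until day 140. Each dam group supplied 3 pools in late pregnancy and 2 in lactation, and the series design gives 3 ewes for a pool of late pregnancy and 2 for a pool of lactation, although the study's methods state 3 for both. Because the RNA was pooled, the spread between libraries is a spread between pools and not between animals.

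Collagens are built from 3 chains wound into a triple helix. The fibrillar types (I, III, V, XI and XXVII) form the tensile fibres of connective tissue, the FACIT types lie on the surface of those fibres, type VI forms beaded filaments, and type IV forms the sheet-like network of basement membranes. In the mammary gland, fibroblasts between the ducts and alveoli make most of the fibrillar collagen, while the basement membrane separates the epithelium and its myoepithelial layer from the stroma and also surrounds the capillaries. The other proteins described here bind to collagen or to cells: small proteoglycans such as decorin coat the fibres, fibrillin and elastin form elastic fibres, lysyl oxidase cross-links collagen and elastin, and matricellular proteins such as SPARC and the thrombospondins act on cells without bearing load.

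Reads on exons per library, with reads on the whole gene in their place for features without an annotated transcript, numbered 6471237 to 16898986 (late pregnancy) and 9014506 to 24001031 (lactation). Genes of 7 milk proteins made up 13.7% to 23.4% of them before and 71.3% to 75.8% after lambing, so fewer reads were left for matrix genes in lactation. The lactation library of HM pool 1 stood apart, with 85.0% of all its gene reads in annotated exons (features without a transcript count only in the total) against 91.3% to 92.3% in the other 5 lactation libraries (79.5% to 81.6% in late pregnancy) and with the lowest share of milk protein reads. Values without it are given where it changes a call. Levels are given as CPM, that is, counts of reads on exons scaled to library sizes set by the trimmed mean of M values (TMM). Adjusted p values are Benjamini-Hochberg values over all genes of the comparison from the edgeR quasi-likelihood test, a gene was called at an adjusted p under 0.05, and a log2 change is lactation over late pregnancy with its standard error (SE).

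The names were checked against the order of genes in a later RefSeq assembly (ARS-UI_Ramb). Of the 45 genes, 44 had between 2 and 14 of their 8 nearest genes on either side in common with the RefSeq gene of that symbol. The exception was the feature named COL6A1 on chromosome 1, which shared 0 neighbours with RefSeq COL6A1 and 7 with RefSeq COL6A3, so its values below may be those of COL6A3. RefSeq now gives symbols of the kind listed above to 5 features that the table names only by gene ID: COL1A2, COL3A1, COL6A1, COL8A1 and FBLN1. They are not among the 45 genes, and their values are given as a supplement to the chains they belong with.

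Ranked by CPM per kilobase of exon in late pregnancy, the leading genes were SPARC (163 ± 28.1, mean ± SD, n = 9 here and for other values of late pregnancy), DCN (71.9 ± 11.7), COL1A1 (53.6 ± 15.1), LUM (52.3 ± 7.53) and COL4A1 (34.0 ± 6.13). COL1A1 and LUM, neighbours in this order, differed by less than their SD. These 5 genes made up 64.3% of the summed level per kilobase of the 45. In lactation SPARC (83.6 ± 15.1, n = 6 here and for other values of lactation) and DCN (54.1 ± 9.93) again came first, followed by COL4A1 (44.8 ± 9.81) and LUM (44.3 ± 8.31), which differed by less than their SD, and then by COL4A2 (21.3 ± 4.18) and COL1A1 (20.4 ± 5.23), which also lay within each other's SD. From late pregnancy to lactation COL1A1 moved from rank 3 to rank 6 and COL4A2 from rank 8 to rank 5, and further down MATN3 moved from rank 7 to rank 44 and COL16A1 from rank 14 to rank 25. All 45 genes together made up 0.241% to 0.387% of a late pregnancy library's exon reads and 0.0532% to 0.0776% of those of a lactation library. After removal of milk protein reads from the total, the shares were 0.296% to 0.463% and 0.220% to 0.294%, which did not overlap either.

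**Figure D1:**
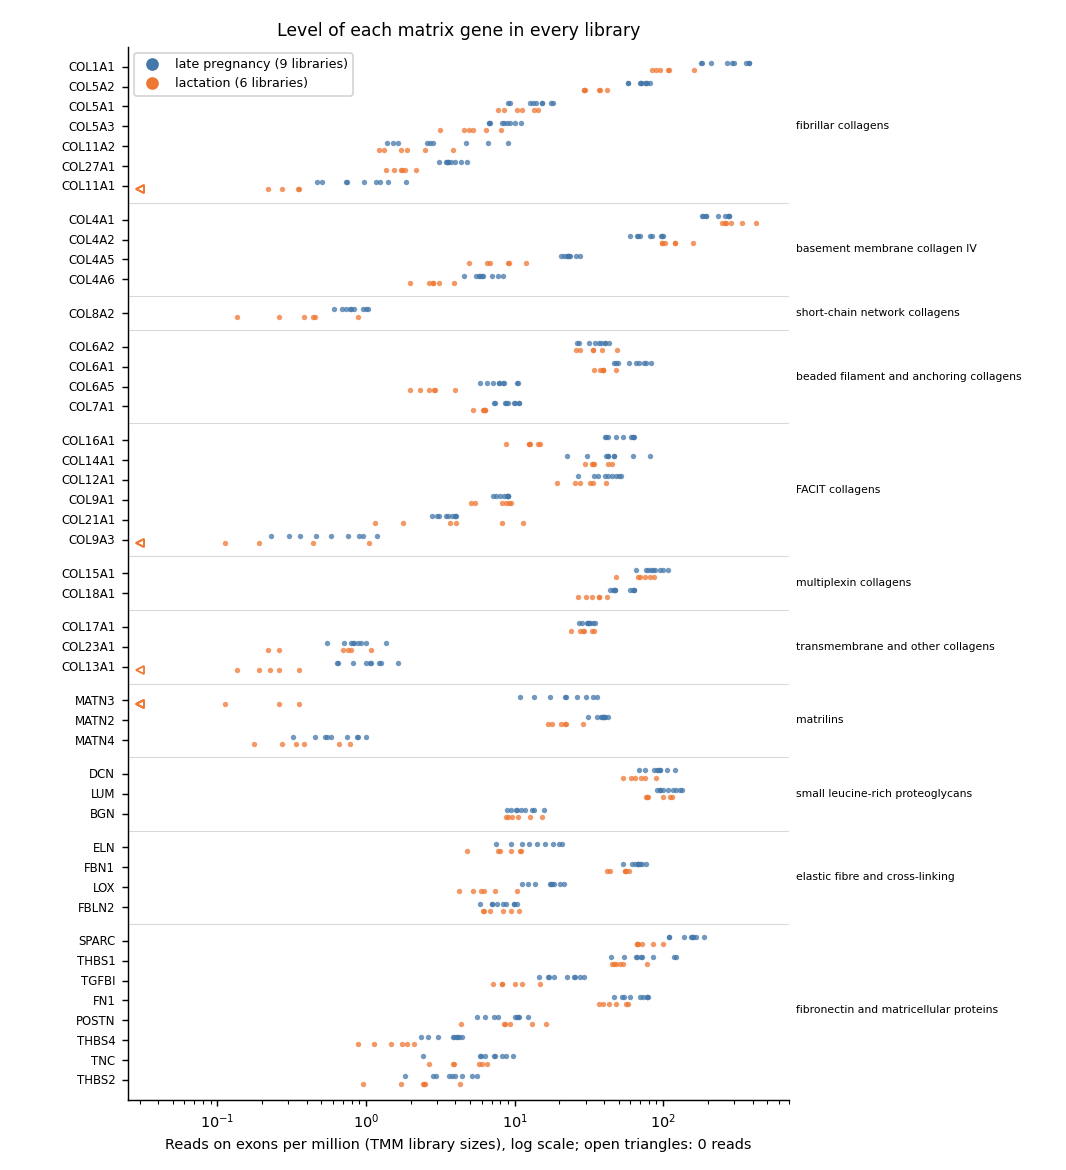
CPM on exons (TMM library sizes, log axis) of the 45 matrix genes in each of the 9 late pregnancy libraries (blue) and 6 lactation libraries (orange), grouped by role; open triangles at the left edge stand for libraries with 0 reads. COL1A1, COL16A1, SPARC and MATN3 show separate ranges, while COL17A1, LUM and BGN show overlapping ones.

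The comparison of lactation with late pregnancy asks how the matrix genes differ between a gland that is still growing and one that secretes milk. Of the 45 genes, 27 were lower in lactation, 2 were higher and 16 were not called. Among all 13345 genes tested, 35.2% were called lower and 33.1% higher. The fall was more than 2-fold in 14 of the 45 genes (13.0% of all genes) and the rise in 0 (9.13% of all genes). All 6 lactation libraries lay below all 9 late pregnancy libraries for 16 of the 45 genes (20.0% of all genes), and for 0 of them did they all lie above (20.2% of all genes). The median log2 change of the 45 was -0.60, beside -0.03 for all genes tested, and 40 of the 45 lay below the median of all genes.

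The read minimum bears on these counts. It was met only in late pregnancy by 7 of the 45 genes (COL8A2, COL9A3, COL11A1, COL13A1, COL23A1, MATN3 and MATN4) and by none only in lactation. Genes with their reads in late pregnancy could thus enter more easily, and the counts are a description. COL8A2, COL11A1, COL13A1 and MATN3 were called lower, each by more than 2-fold. Their calls and p values below are likewise a description. At least 10 reads in every library were found for 31 of the 45, of which 19 were lower. All lactation libraries lay below all late pregnancy libraries for 9 of these 31, a count for which the share of all such genes was not computed. Of all 10079 genes with that many reads in every library, 30.9% were called lower and 40.0% higher. Just inside the minimum were COL9A3 (6 libraries at 10 reads or more, 118 reads in all) and MATN4 (7 libraries, 142 reads), and just outside it were COL24A1 (4 libraries, 96 reads) and COL4A4 (4 libraries, 103 reads). The other 11 below the minimum were COL2A1, COL4A3, COL6A6, COL9A2, COL10A1, COL19A1, COL20A1, COL22A1, COL25A1, COL28A1 and MATN1.

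Scaling bears on every change as well. With library sizes alone, the median log2 change of all genes moved from -0.03 to -1.94 and all 45 genes were called lower. The median of the 45 was 0.56 below that of all genes, and 40 of the 45 lay below it. Such a change of scaling shifts all genes by nearly the same amount. These relative values could thus hardly change and do not test the scaling. In limma on quantile-normalized RPKM (plus 1), the median of the 45 relative to that of all genes was -0.27, and 40 lay below it. In RNA of whole biopsies, fewer cells of a type and less RNA per cell cannot be told apart.

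**Figure D2:**
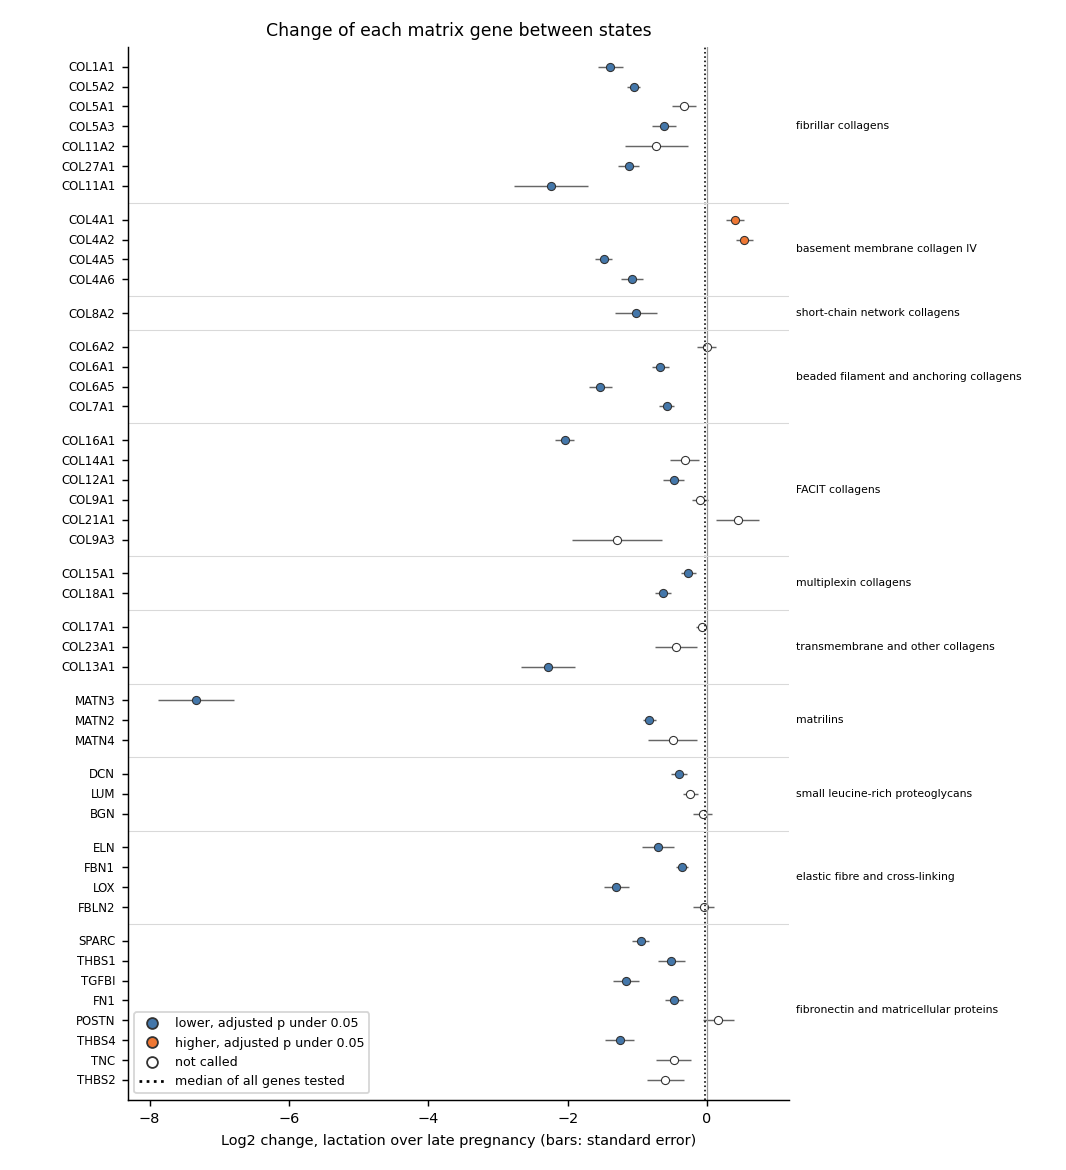
Log2 change (lactation over late pregnancy, horizontal axis) with its standard error for the 45 matrix genes, grouped by role; blue points are called lower, orange points higher and white points neither, and the dotted line marks the median of all genes tested. COL4A1 and COL4A2 are called higher under TMM scaling, but both are lower with library sizes alone; the point of MATN3 rests on at most 3 reads in any lactation library and is no measure of the size of its fall.

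Of the 7 fibrillar chains, 5 were lower in lactation and 2 (COL5A1 and COL11A2) were not called. COL1A1, the most abundant of them and a chain of type I collagen, ranged from 181 to 379 CPM in late pregnancy (median 289) and from 83.7 to 160.4 CPM in lactation (median 102). The ranges did not overlap, and the fall was 2.61-fold (log2 change -1.39, SE 0.18, edgeR adjusted p = 1.39e-06). COL5A2, a chain of the type V collagen found inside type I fibres, ranged from 57.7 to 80.8 CPM (median 71.3) and from 29.1 to 41.9 CPM (median 33.2). It fell 2.08-fold without overlap (log2 change -1.05, SE 0.10, edgeR adjusted p = 7.39e-09). Its partner chain COL5A1 had 8.97 to 18.2 CPM (median 13.9) and 7.78 to 14.4 CPM (median 10.8). Those ranges overlapped, with a log2 change of -0.33 (SE 0.17, edgeR adjusted p = 0.0991). It was called lower with upper quartile scaling (edgeR adjusted p = 0.0203), with library sizes that leave out the milk protein genes (0.0109), among genes with 10 reads in every library (0.0421), and without late pregnancy HM pool 1, late pregnancy LM pool 1 or lactation MM pool 1 (0.0339 to 0.0424).

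COL11A1, a chain of the minor fibrillar type XI that cartilage is rich in, stood at 8 to 49 reads before lambing and 0 to 4 reads after it. Its levels of 0.470 to 1.86 CPM and 0 to 0.352 CPM did not overlap (log2 change -2.24, SE 0.53, edgeR adjusted p = 0.000993), but COL11A1 met the read minimum only in late pregnancy. COL27A1 was lower by 1.12 on the log2 scale (SE 0.15) and COL5A3 by 0.61 (SE 0.17). The features that RefSeq names COL1A2 and COL3A1, the second chain of type I and the chain of type III collagen, had 293 to 512 CPM and 650 to 989 CPM in late pregnancy. In lactation they had 119.6 to 209 CPM and 256 to 417 CPM. Both were thus lower in every lactation library than in any late pregnancy library (log2 change -1.45, SE 0.15, edgeR adjusted p = 3.53e-08 for COL1A2, and -1.41, SE 0.12, edgeR adjusted p = 2.97e-09 for COL3A1). Per kilobase of exon, COL3A1 (152 ± 24.7 CPM) and COL1A2 (79.2 ± 16.7 CPM) stood above COL1A1 in late pregnancy.

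Collagen IV was the role in which chains moved in opposite directions. COL4A1 and COL4A2, the chains of the network present in nearly all basement membranes, lie 32243 bases apart on chromosome 10 (COL4A1 at 84217200 to 84313506, COL4A2 at 84345750 to 84506645). COL4A5 and COL4A6, chains with a more restricted distribution, lie 1469 bases apart on chromosome X (COL4A5 at 119482565 to 119735560, COL4A6 at 119737030 to 120076687). These positions are those of the deposited table (labelled Oar_v3.1).

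COL4A1 ranged from 183 to 278 CPM in late pregnancy (median 232) and from 250.4 to 424 CPM in lactation (median 276). COL4A2 ranged from 59.4 to 99.1 CPM (median 81.9) and from 97.5 to 157 CPM (median 111). In both, the lowest lactation libraries lay within the upper part of the late pregnancy range. The rise was 1.32-fold for COL4A1 (log2 change 0.40, SE 0.12, edgeR adjusted p = 0.00785) and 1.45-fold for COL4A2 (log2 change 0.53, SE 0.12, edgeR adjusted p = 0.000758), but with library sizes alone both were lower (log2 change -1.51 and -1.38). Relative to the median of all genes, the differences were 0.43 and 0.56 under TMM scaling and with library sizes alone. A shift of all genes by nearly the same amount leaves such differences as they are. In limma on quantile-normalized RPKM (plus 1) they were 0.18 and 0.38. The call of COL4A1 was lost with upper quartile scaling (edgeR adjusted p = 0.0799), with library sizes that leave out the milk protein genes (edgeR adjusted p = 0.185) and in limma on quantile-normalized RPKM (adjusted p = 0.343), whereas COL4A2 kept its call in these 3 (adjusted p from 0.00948 to 0.0295).

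COL4A5 ranged from 20.4 to 27.5 CPM in late pregnancy (median 23.0) and from 4.95 to 11.8 CPM in lactation (median 7.93). COL4A6 ranged from 4.60 to 8.41 CPM (median 6.01) and from 1.98 to 3.92 CPM (median 2.82). Neither overlapped between the states. COL4A5 fell 2.80-fold (log2 change -1.49, SE 0.13, edgeR adjusted p = 2.88e-09) and COL4A6 fell 2.11-fold (log2 change -1.07, SE 0.16, edgeR adjusted p = 6.24e-06). COL4A3 and COL4A4, the chains known from the kidney and other specialised basement membranes, were below the read minimum.

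Of the beaded filament and anchoring collagens, COL6A5, COL7A1 and the feature named COL6A1 were lower and COL6A2 was not called. COL6A2, a chain of the type VI filaments around cells, had 26.4 to 42.9 CPM in late pregnancy (median 37.2) and 25.8 to 49.2 CPM in lactation (median 33.7). Its log2 change was -0.01 (SE 0.13, edgeR adjusted p = 0.968). The feature named COL6A1, which may be COL6A3, had 46.4 to 82.2 CPM (median 65.9) and 34.4 to 47.9 CPM (median 39.4), with an overlap at the edge of the ranges. It fell 1.59-fold (log2 change -0.67, SE 0.13, edgeR adjusted p = 0.0001). The feature with the gene ID of COL6A1 had 61.5 to 98.2 CPM and 52.2 to 94.1 CPM, a smaller difference with wide overlap (log2 change -0.32, SE 0.13, edgeR adjusted p = 0.0350). COL6A5, an additional type VI chain, had 5.82 to 10.5 CPM (median 7.90) and 1.98 to 3.997 CPM (median 2.75). It fell 2.89-fold without overlap (log2 change -1.53, SE 0.17, edgeR adjusted p = 9.05e-08). COL7A1, the chain of the anchoring fibrils, was lower by 0.58 on the log2 scale (SE 0.11) without overlap.

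Among the 6 FACIT chains, COL16A1 and COL12A1 were lower and COL9A1, COL9A3, COL14A1 and COL21A1 were not called. COL16A1, a minor chain that associates with fibrils and microfibrils, ranged from 40.2 to 63.4 CPM in late pregnancy (median 53.4) and from 8.76 to 14.7 CPM in lactation (median 12.6). Every lactation library lay far below the late pregnancy range, and at 4.12-fold (log2 change -2.04, SE 0.14, edgeR adjusted p = 7.21e-11) this was the largest fall among the 31 genes with 10 reads in every library. COL14A1, another chain on the fibril surface, spread over 22.4 to 81.7 CPM in late pregnancy and 29.7 to 45.3 CPM in lactation (log2 change -0.32, SE 0.21). It was called lower without late pregnancy HM pool 1 (edgeR adjusted p = 0.0408), and COL9A3, on at most 20 reads a library, without lactation HM pool 2 (edgeR adjusted p = 0.00827). COL12A1 was lower by 0.48 on the log2 scale (SE 0.15).

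The basement membrane zone chains COL15A1 and COL18A1, the multiplexins, were both lower, the second of them by 0.63 on the log2 scale (SE 0.11) without overlap. COL15A1 had 65.9 to 107 CPM in late pregnancy (median 85.3) and 48.3 to 87.0 CPM in lactation (median 72.5), and its log2 change of -0.27 (SE 0.11, edgeR adjusted p = 0.0387) lost its call without lactation HM pool 1, LM pool 1 or LM pool 2 and without late pregnancy HM pool 2, LM pool 3, MM pool 1 or MM pool 2 (edgeR adjusted p from 0.0517 to 0.112). It was not called on reads of the whole gene (edgeR adjusted p = 0.0781) or on junction reads (edgeR adjusted p = 0.183) either. COL17A1, the transmembrane collagen of hemidesmosomes, which tie epithelial cells to the basement membrane, had 27.0 to 34.6 CPM (median 31.4) and 23.9 to 34.2 CPM (median 29.0). The ranges lay over each other (log2 change -0.08, SE 0.07, edgeR adjusted p = 0.362). COL13A1, a transmembrane collagen of cell contacts, had 11 to 33 reads before lambing and 0 to 3 after it, which makes it at least 1.58-fold lower against 3 reads in the lactation library with the smallest scaled size (edgeR adjusted p = 3.37e-05). COL8A2, a short-chain network collagen, had 0.608 to 1.03 CPM (median 0.796) and 0.136 to 0.879 CPM (median 0.410). It was lower by 1.02 on the log2 scale (SE 0.30, edgeR adjusted p = 0.00499) on few reads and with overlap. COL13A1 and COL8A2 met the read minimum only in late pregnancy. COL8A1, found by gene ID, had a log2 change of 0.04 (SE 0.22).

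MATN3, a matrilin known mainly from cartilage, stood at or near 0 in lactation. Its reads numbered 188 to 936 in the late pregnancy libraries (10.9 to 35.9 CPM, median 22.1) and 0 to 3 in the lactation libraries (0, 0, 0, 1, 2 and 3 reads). Against 3 reads in the lactation library with the smallest scaled size, it was at least 35.7-fold lower (edgeR adjusted p = 3.62e-10). MATN3 met the read minimum only in late pregnancy. Per kilobase of exon it held rank 7 of the 45 in late pregnancy (15.1 ± 5.66 CPM). Of genes that mark cartilage cells, COL2A1 had 6 reads in all 15 libraries together, and SOX9, which gland epithelium also expresses, was lower in lactation (log2 change -1.08, SE 0.18). ACAN, the core protein of the main cartilage proteoglycan, lay below the read minimum, with 0 to 0.167 CPM in late pregnancy and 0.659 to 1.58 CPM in lactation. MATN2, a matrilin of many basement membranes, was lower by 0.83 on the log2 scale (SE 0.10) without overlap, and MATN4 (log2 change -0.50, SE 0.35) was not called.

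The 3 small leucine-rich proteoglycans changed less. DCN (decorin) had 69.0 to 119.4 CPM in late pregnancy (median 92.9) and 54.0 to 90.1 CPM in lactation (median 68.0). The ranges overlapped and the fall was 1.32-fold (log2 change -0.41, SE 0.12, edgeR adjusted p = 0.00407). LUM (lumican) had 91.3 to 133 CPM (median 108) and 76.7 to 114 CPM (median 89.6). Its log2 change of -0.24 (SE 0.11) missed the threshold (edgeR adjusted p = 0.0543), while limma on quantile-normalized RPKM called it lower (adjusted p = 0.000986). The edgeR test also called it lower without late pregnancy HM pool 1 or 2 or LM pool 1 or 3, or without lactation LM pool 2 or MM pool 1 (adjusted p from 0.0202 to 0.0477). BGN (biglycan) had 8.95 to 15.8 CPM (median 11.0) and 8.79 to 15.2 CPM (median 10.1), with a log2 change of -0.07 (SE 0.14, edgeR adjusted p = 0.692).

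Of the elastic fibre genes, LOX, ELN and FBN1 were lower and FBLN2 was not called. LOX (lysyl oxidase) had 11.1 to 21.4 CPM in late pregnancy (median 17.6) and 4.20 to 10.4 CPM in lactation (median 6.07). It fell 2.46-fold without overlap (log2 change -1.30, SE 0.18, edgeR adjusted p = 2.92e-06), a call not made on reads across exon-exon junctions alone (log2 change -0.59, edgeR adjusted p = 0.113). ELN (elastin) had 7.47 to 20.8 CPM (median 14.1) and 4.75 to 11.0 CPM (median 8.71), overlapping ranges with a 1.63-fold fall (log2 change -0.71, SE 0.23, edgeR adjusted p = 0.0101). FBN1 (fibrillin of the microfibrils) was lower by 0.36 (SE 0.08), but not on junction reads alone, where its log2 change was 0.0630 (edgeR adjusted p = 0.579), and FBLN2, which bridges elastic fibres and basement membranes, had a log2 change of -0.05 (SE 0.15). FBLN1, found by gene ID, had 12.5 to 27.6 CPM and 9.09 to 19.5 CPM and was not called (log2 change -0.35, SE 0.18, edgeR adjusted p = 0.0877).

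Among fibronectin and the matricellular proteins, SPARC, THBS1, THBS4, TGFBI and FN1 were lower and POSTN, TNC and THBS2 were not called. SPARC, a collagen-binding glycoprotein, had 109 to 188 CPM in late pregnancy (median 155) and 66.7 to 100.2 CPM in lactation (median 69.3). It fell 1.94-fold without overlap (log2 change -0.95, SE 0.12, edgeR adjusted p = 8.06e-07). THBS1 was lower by 0.52 on the log2 scale (SE 0.19, edgeR adjusted p = 0.0235), a call lost without lactation LM pool 1, LM pool 2 or MM pool 2 (edgeR adjusted p from 0.0510 to 0.0553). FN1 (fibronectin) was lower by 0.48 (SE 0.13). On reads across exon-exon junctions alone, neither THBS1 (edgeR adjusted p = 0.108) nor FN1 (edgeR adjusted p = 0.0924) was called. THBS2 had 1.83 to 5.62 CPM (median 3.76) and 0.949 to 4.26 CPM (median 2.44), and its log2 change of -0.60 (SE 0.27) missed the threshold in edgeR (adjusted p = 0.0526) and passed it in DESeq2 (adjusted p = 0.0278). In edgeR it passed without late pregnancy HM pool 2, LM pool 1 or MM pool 1, or without lactation MM pool 1 (adjusted p from 0.00666 to 0.0440). POSTN (log2 change 0.16, SE 0.22) and TNC (log2 change -0.48, SE 0.25) overlapped widely, and the sign of POSTN turned with library sizes alone. TNC was called lower without late pregnancy LM pool 1 (edgeR adjusted p = 0.00474), with upper quartile scaling (0.0322) and with library sizes that leave out the milk protein genes (0.0208).

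TGFBI and THBS4 are the genes of this group that the study also assayed by RT-qPCR. The primers are printed because they are the designed sequences by which these transcripts were targeted. They are given 5′ to 3′, none of their bases is marked, and they are 18 to 21 bases long with 50.0% to 55.0% G or C.
TGFBI forward: tggcgatgaaatcctggt
TGFBI reverse: ggctccttattgacactcacc
THBS4 forward: gttcttggggcagatgtcac
THBS4 reverse: gcattcggctatggtgtttc
TGFBI, a secreted adaptor between collagen and integrins, had 14.6 to 29.1 CPM in late pregnancy (median 22.4) and 7.19 to 14.8 CPM in lactation (median 9.13). Only lactation LM pool 2 reached the late pregnancy range. The fall was 2.24-fold (log2 change -1.16, SE 0.18, edgeR adjusted p = 1.20e-05). THBS4, a thrombospondin of tendon and other dense matrix, had 2.33 to 4.43 CPM (median 3.92) and 0.879 to 2.09 CPM (median 1.61). It fell 2.38-fold without overlap (log2 change -1.25, SE 0.21, edgeR adjusted p = 2.30e-05).

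Ratios of paired genes within a library do not depend on how the libraries are scaled. They were taken as reads per kilobase of exon for 7 pairs, of which 6 are chains of the same collagen type or proteoglycans of 1 family and 1 sets collagen IV against collagen I, and compared with two-sided exact permutation tests over the 15 libraries, for which the smallest p possible is 0.0004. The ratio of COL4A1 to COL1A1, basement membrane against fibrillar collagen, ranged from 0.374 to 1.03 in late pregnancy (median 0.602) and from 1.39 to 3.03 in lactation (median 2.31). The ranges did not overlap (log2 difference 1.76, exact permutation p = 0.0004, adjusted over the 7 pairs 0.0028). COL5A2 exceeded COL5A1 by 3.95 to 5.98 times in late pregnancy (median 4.77) and by 2.42 to 4.02 times in lactation (median 2.68), so the 2 chains of type V collagen did not fall together (log2 difference -0.73, exact permutation p = 0.0008, adjusted 0.0028). COL4A2 and COL4A1 kept nearer to each other, with a ratio of 0.375 to 0.476 (median 0.440) and 0.441 to 0.520 (median 0.475). That shift of 0.14 on the log2 scale passed the test (exact permutation p = 0.0144, adjusted 0.0201).

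COL4A6 to COL4A5 moved from 0.248 to 0.379 (median 0.333) in late pregnancy to 0.283 to 0.677 (median 0.461) in lactation, with overlap (log2 difference 0.47, exact permutation p = 0.0248, adjusted 0.0289). Without lactation HM pool 2, LM pool 1 or LM pool 2 this difference did not pass (exact permutation p = 0.0619 each). The ratio of COL6A2 to the feature named COL6A1 moved from 1.20 to 1.85 (median 1.47) to 1.80 to 2.69 (median 2.39), with a log2 difference of 0.61 (exact permutation p = 0.0012, adjusted 0.0028). Against the feature with the gene ID of COL6A1, COL6A2 stood at 0.413 to 0.486 and 0.437 to 0.607, a smaller log2 difference of 0.29 (exact permutation p = 0.0024), a comparison chosen after seeing the data. BGN to DCN moved from 0.119 to 0.166 (median 0.144) to 0.159 to 0.233 (median 0.181), a log2 difference of 0.34 (exact permutation p = 0.0028, adjusted 0.0049). LUM to DCN, genes 35911 bases apart on chromosome 3, did not pass (log2 difference 0.16, exact permutation p = 0.0699, adjusted 0.0699). For the type I and III chains, COL1A2 to COL1A1 stood at 1.30 to 1.73 in late pregnancy and 1.30 to 1.58 in lactation, and COL3A1 to COL1A1 at 2.36 to 3.52 and 2.50 to 3.12. These 2 ratios were examined after the gene IDs had been looked up and were not tested.

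**Figure D3:**
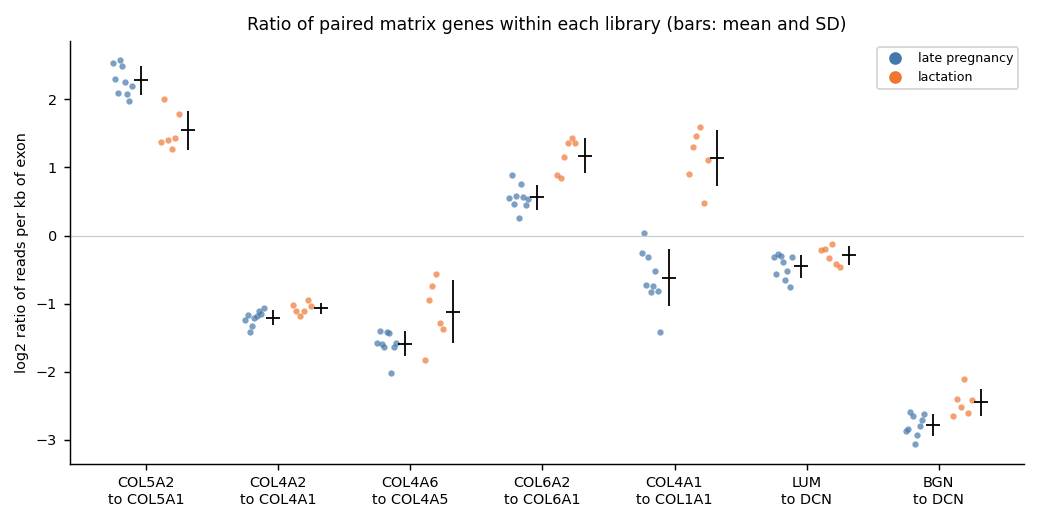
Log2 ratio of reads per kilobase of exon for 7 pairs of matrix genes in each library (points; blue late pregnancy, orange lactation), with black bars for the mean and SD of each state. The COL4A1 to COL1A1 ratio separates the states, from at most 1.03 in late pregnancy to at least 1.39 in lactation, while LUM to DCN overlaps.

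Reads on introns are another readout of the same libraries. Of the 45 genes, 28 had enough of them to be tested among 10344 genes, and 10 were lower and 5 higher in lactation. Among all genes tested on introns 29.0% were lower and 29.0% higher. The 5 that were higher were COL4A1, COL4A2, COL15A1, COL21A1 and COL23A1. The log2 change on introns was 2.23 for COL4A1 (edgeR adjusted p = 1.81e-13) and 2.47 for COL4A2 (edgeR adjusted p = 1.73e-11), beside 0.40 and 0.53 on exons. The share of the gene's reads that lay on introns, which needs no scaling, was 1.23% to 1.79% for COL4A1 in late pregnancy and 4.26% to 5.75% in lactation. For COL4A2 it was 2.79% to 4.27% and 10.4% to 14.6%. COL15A1, called lower on exons, had 4.70% to 6.68% and 8.70% to 12.1%.

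In all, the share on introns was higher in every lactation library than in any late pregnancy library for 6 of the 28 genes, and lower in none. Over 9529 genes with a median of at least 10 reads on introns and on exons, this was so for 6.3% and 4.06%. Besides the 3 just named, the 6 were COL4A6, COL11A1 and COL23A1. COL11A1 and COL23A1 met the read minimum only in late pregnancy, which favours low exon counts and so high intron shares in lactation. In the lactation libraries they had 0 to 4 and 1 to 8 reads on exons, and 4 to 9 and 7 to 28 on introns. The count of 6 is therefore a description. On these few reads COL23A1, a transmembrane collagen, changed direction with the reads counted, from -0.44 (SE 0.30, not called) on exons to 0.96 (edgeR adjusted p = 0.00129) on the whole gene. COL16A1 (log2 change -2.64), MATN3, DCN (-1.18) and SPARC (-0.93) were lower on introns as on exons. No other feature of the table overlapped these genes, save a transfer RNA gene with a median of 0 reads within COL4A6. Whether such reads come from unspliced RNA, from exons missing in the annotation or from DNA was not tested.

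**Figure D4:**
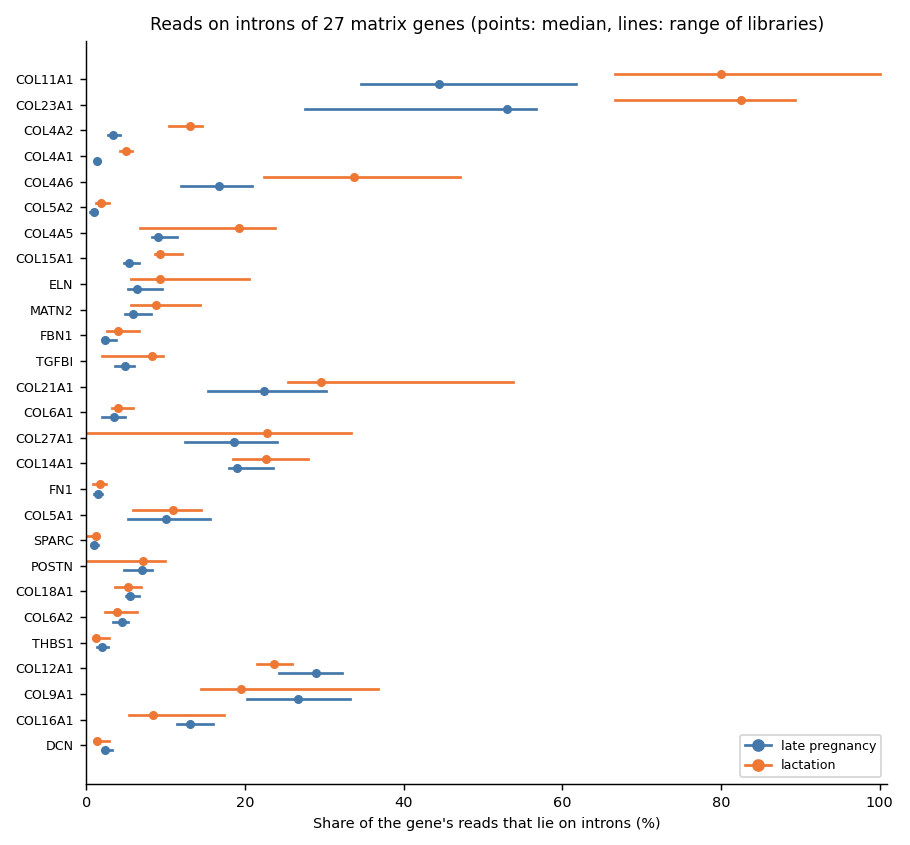
Share of a gene's reads that lie on introns (percent) for the matrix genes tested on introns, MATN3 left out because it has at most 3 reads on exons in lactation; points are medians and lines the range over 9 late pregnancy (blue) and 6 lactation (orange) libraries. COL4A1 and COL4A2 show separate ranges, at most 1.79% and 4.27% in late pregnancy and at least 4.26% and 10.4% in lactation.

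The enzymes and chaperones of collagen synthesis were described from lists. Of 18 genes for folding, modification and export that were tested, 8 were lower and 7 higher (44.4% and 38.9%). Among all genes tested the shares were 35.2% and 33.1%. The rises included PLOD3 (log2 change 1.40, SE 0.09) and PLOD2 (1.20, SE 0.12), which hydroxylate lysine in collagen, P4HB (0.96, SE 0.07), a subunit of prolyl hydroxylase that is also a general disulphide isomerase of the secretory pathway, SEC13 (0.84, SE 0.05), a general coat protein of export vesicles, and MIA3 (0.72, SE 0.05), which loads bulky cargo into those vesicles. P4HB and SEC13 serve all secreted proteins, not collagen alone. Falls were seen in FKBP10 (-1.10, SE 0.12), a collagen chaperone, in the prolyl hydroxylase family members LEPREL2 (-0.99, SE 0.13) and LEPREL1 (-0.61, SE 0.13), in LEPREL4 (-0.95, SE 0.19), and in CRTAP (-0.78, SE 0.16), part of the prolyl hydroxylation complex. SERPINH1, the chaperone that binds the collagen helix, was lower by 0.29 (SE 0.08).

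Of 11 genes for procollagen processing and cross-linking, 5 were lower and 3 higher (45.5% and 27.3%, beside 35.2% and 33.1% of all genes tested). LOXL4 (log2 change -1.51, SE 0.40), LOXL2 (-0.68, SE 0.15) and LOXL3 (-0.37, SE 0.12), relatives of LOX, were lower, as were TGM2 (-0.68, SE 0.12), a transglutaminase, and PCOLCE (-0.46, SE 0.11), an enhancer of procollagen cleavage. ADAMTS3 (1.01, SE 0.29) and BMP1 (0.69, SE 0.07), which cleave the ends off procollagen, and PCOLCE2 (0.74, SE 0.16) were higher. Of 34 other matrix proteins, 19 were lower and 6 higher (55.9% and 17.6%, beside the same shares of all genes). The largest falls were in FBN2 (-3.12, SE 0.37), a fibrillin of growing tissue, LTBP1 (-1.22, SE 0.14), which stores latent TGF-beta, SMOC2 (-1.12, SE 0.28), SPARCL1 (-0.89, SE 0.09) and SMOC1 (-0.82, SE 0.17), the last 3 being relatives of SPARC. The largest rises were in WISP2 (1.36, SE 0.23), MFAP4 (0.73, SE 0.17), PRELP (0.57, SE 0.21), ECM1 (0.40, SE 0.12) and TNXB (0.29, SE 0.10). FBN2 ranged from 5.68 to 24.6 CPM in late pregnancy and from 1.05 to 2.26 CPM in lactation, without overlap. Each of these genes was called by edgeR, with adjusted p of at most 0.0201.

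Markers of the cells of the gland were counted in the same way, beside 35.2% lower and 33.1% higher among all 13345 genes tested on exons. Of 8 fibroblast markers tested that code none of the 45 genes, 5 were lower and 0 higher, with a summed level of 134 to 195 CPM in late pregnancy and 97.9 to 157 CPM in lactation. PDGFRA was lower by 0.61 on the log2 scale (SE 0.12), DPT was not called (0.27, SE 0.17), and TCF21 had 0 reads throughout. All 5 endothelial markers tested were lower (159 to 214 CPM and 94.6 to 136 CPM), and of 5 macrophage markers 3 were lower and 1 higher (445 to 584 CPM and 181 to 255 CPM). Of 8 luminal markers 2 were lower and 4 higher (1659 to 2048 CPM and 2412 to 2684 CPM), of 6 myoepithelial markers 2 were lower and 2 higher (555 to 597 CPM and 454 to 662 CPM), and of 8 markers of pericytes and smooth muscle 2 were lower and 1 higher (181 to 257 CPM and 236 to 326 CPM). Of 4 adipocyte markers 0 were called by edgeR, and 0 had an unadjusted p under 0.05 (227 to 436 CPM and 307 to 401 CPM). Of the Schwann cell markers, SOX10, which mammary epithelium also expresses, was not called (log2 change 0.07, SE 0.07), and S100B was lower (log2 change -1.15, SE 0.29). The cartilage list summed to 7.13 to 13.0 CPM and 3.80 to 7.66 CPM, most of it SOX9. The part of these shifts in the changes of the matrix genes was not tested.

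Within late pregnancy, 4 pairs of genes were compared across the 9 pools on the log2 CPM scale. COL4A1 and COL4A2 varied together (Pearson r = 0.922, permutation p = 0.00312, adjusted over the 4 pairs 0.0125), and r was 0.916 without the 2 pools farthest from the median of COL4A1. Spearman's rho for this pair was 0.783 (permutation p = 0.0171, adjusted 0.0684). COL1A1 and COL4A1 showed r = 0.342 (permutation p = 0.354, adjusted 0.354; rho 0.183, permutation p = 0.643, adjusted 0.643), with r = -0.171 once the 2 farthest pools were left out. COL1A1 with the fibroblast marker PDGFRA gave r = 0.525 (permutation p = 0.145, adjusted 0.289; rho 0.383, permutation p = 0.317, adjusted 0.423; r = 0.329 without the 2 farthest). With the luminal keratin KRT8 it gave r = -0.434 (permutation p = 0.240, adjusted 0.319; rho -0.400, permutation p = 0.294, adjusted 0.423; r = -0.221 without the 2 farthest).

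The feeding of the dams was compared within each state. In late pregnancy 0 of the 45 genes was called by edgeR, as was 0.0% of 13747 genes, and 4 of the 45 had an unadjusted p under 0.05 (4.15% of all genes). DESeq2 called 1, TGFBI (adjusted p = 0.0117, edgeR adjusted p = 0.648). TGFBI had 25.1 to 29.1 CPM in the 3 HM pools, 18.3 to 27.5 CPM in the 3 MM pools and 14.6 to 17.0 CPM in the 3 LM pools, so that all LM pools lay below the others. By the sequencing lane in the column names, all 3 LM pools were on lane 8, while HM and MM had pools on lanes 7 and 8. In lactation the same gene showed no such order (10.0 and 11.2 CPM in HM, 8.18 and 8.23 CPM in MM, 7.19 and 14.8 CPM in LM).

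In lactation 1 of the 45 genes, COL21A1, was called for dam feeding by edgeR, as was 0.015% of all genes, and 8 of the 45 had an unadjusted p under 0.05 (7.91% of all genes). COL21A1, a FACIT chain of blood vessel walls and other tissues, had 8.26 and 11.4 CPM in the 2 HM pools (47 and 52 reads), 3.65 and 4.06 CPM in the MM pools (42 and 36 reads) and 1.14 and 1.76 CPM in the LM pools (6 and 13 reads). The groups did not overlap (edgeR adjusted p = 0.0169). In lactation, both HM pools were on lane 7 and both LM pools on lane 8, while MM had a pool on each. Lane was not a covariate in the feeding tests. Feeding and lane therefore cannot be told apart between HM and LM in lactation, for COL21A1 or for the genes below. The 9 late pregnancy pools held 2.77 to 4.01 CPM with no separation of the groups. The higher HM value came from HM pool 1, the library that stood apart, and without it the call was lost (edgeR adjusted p = 0.0865). It was also lost when the 6 lactation libraries were fitted alone (edgeR adjusted p = 0.139), while leaving out any other library kept it (edgeR adjusted p from 0.00534 to 0.0391).

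The interaction of dam feeding and state called 0 of the 45 genes by edgeR and 0.0% of all genes, with 6 of the 45 at an unadjusted p under 0.05 (6.56% of all genes). DESeq2 called 1, COL21A1 (adjusted p = 0.000222, edgeR adjusted p = 0.132), which edgeR also called without lactation HM pool 2 (adjusted p = 0.0260). In 2 of the 45 genes (1.77% of all genes tested) the lactation pools lay above all late pregnancy pools of one dam group and below all of another. COL21A1 did so upward in HM and downward in LM. COL9A1, a chain of the FACIT type IX collagen, did so downward in HM (5.06 and 5.45 CPM against 7.17 to 9.08 CPM) and upward in LM (9.22 and 9.52 CPM against 8.82 to 8.97 CPM), with an edgeR adjusted p of 0.735 for its interaction. COL4A1 reached its highest levels in the lactation pools of LM (339 and 424 CPM, against 250.4 to 287 CPM in the other 4), with an edgeR adjusted p of 0.539 within lactation.

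**Figure D5:**
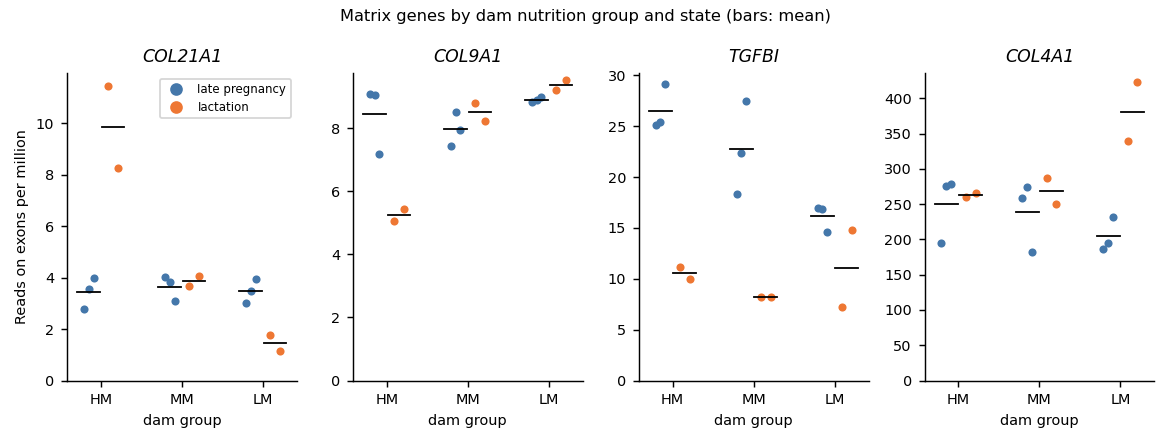
CPM on exons of 4 matrix genes by dam feeding group (HM ad libitum, MM maintenance, LM sub-maintenance) in late pregnancy (blue, 3 pools a group) and lactation (orange, 2 pools a group); black bars are group means. COL21A1 in lactation stands at 8.26 and 11.4 CPM in HM and at 1.14 and 1.76 CPM in LM, and TGFBI in late pregnancy is lowest in LM.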

How the data were processed

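Per the file headers and the labels, the authors mapped paired reads in CLC Genomics Workbench to the sheep genome (Oar_v3.1 in the labels, a neighbouring version number in the study's methods) and deposited 1 table with read counts per gene on exons, on whole genes and across exon-exon junctions, RPKM values and quantile-normalized RPKM values, whose fold changes and p-values of the authors' own Baggerly test were not used. Whether counting used strand is not given in the sources used here. Libraries were grouped by the state and dam group in their labels, which do not say that the pools came from separate days or flocks. Intron reads were obtained, where a transcript is annotated, by subtracting exon reads from whole-gene reads. The deposited counts on exons (on whole genes where no transcript is annotated) were tested with edgeR 4.0.16 (R 4.3.3; filterByExpr by state, TMM scaling, quasi-likelihood F-test, SE from the F statistic), with DESeq2 1.42.0 and limma 3.58.1 (log2 of the deposited quantile-normalized RPKM plus 1 or 0.1) as alternatives; ratios (0.5 read added) and correlations used scipy. The edgeR fit was tested on simulated data with few changed genes and no planned shift in milk protein reads. That test does not bear on the scaling. Where at most 3 reads lay in every library of a state, a bound against 3 reads is given, which covers counting error only. Genes named with values are the highest of each role, the 8 largest falls, all rises, ratio partners, TGFBI and THBS4, genes whose call differed between tools, and up to 5 falls and 5 rises of each pathway list; other named genes were chosen after their values were seen. The genes and lists were chosen with earlier results of these data known. Some marker genes are not reported here.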

Additional observations from a re-analysis of the deposited data

Results flagged for a closer look

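In 6 cases 1 library lay far from the others of its state, by the gap to its neighbour relative to the whole range; chance alone gives about 1 in 20 such cases, and 90 sets of CPM values, which gave 5 of them, and 14 sets of ratios, which gave 1, were examined. COL16A1 was lowest in lactation LM pool 2 (8.76 CPM, the others 12.5 to 14.7), and COL4A2 was highest in the same library (157 CPM, the others 97.5 to 119.9). Lactation MM pool 1 held the highest COL1A1 (160.4 CPM, the others 83.7 to 108.7) and the highest THBS1 (77.8 CPM, the others 45.5 to 53.5). COL7A1 was lowest in lactation HM pool 2 (5.27 CPM, the others 6.15 to 6.31). The COL4A6 to COL4A5 ratio was lowest in late pregnancy MM pool 1 (0.248, the others 0.322 to 0.379).

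COL21A1 and COL9A1 moved in opposite directions between the states in the HM and LM dam groups; the interaction did not pass in edgeR (adjusted p = 0.132 and 0.735), and for COL21A1 it passed in DESeq2 (adjusted p = 0.000222).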

How the results depend on the processing

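Of the 27 genes called lower, 25 stayed lower and called under every alternative planned for them, the exceptions being COL15A1 and THBS1. The count called lower was 45 with library sizes alone and 25 to 31 when 1 library was left out. The count called higher was 0 with library sizes alone, 1 with upper quartile scaling, with library sizes without milk protein genes and in limma with either pseudocount, and 2 whichever library was left out. Upper quartile scaling and library sizes without milk protein genes gave 33 and 35 lower, adding COL5A1, COL14A1, COL17A1, LUM, THBS2 and TNC in both and COL9A1 and COL9A3 in the latter. With lane as a covariate, 27 and 2 were called, as without it. With library sizes alone the log2 changes of COL4A1 (-1.51), COL4A2 (-1.38), COL21A1 (-1.45) and POSTN (-1.76) turned negative, as did that of POSTN without milk protein genes (-0.0511). With reads on the whole gene COL23A1 turned to 0.96. Reads across exon-exon junctions, an alternative chosen after seeing the data, turned COL17A1 (0.0136), COL6A2 (0.00871) and FBN1 (0.0630, its call lost), and the calls of COL15A1, FN1, LOX and THBS1 were lost on them. Leaving out 1 library turned the sign of some uncalled genes, with log2 changes of -0.162 to 0.00235 for BGN, -0.146 to 0.0644 for COL6A2, -0.185 to 0.0268 for FBLN2 and -0.0647 to 0.321 for POSTN.

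Whether the pool numbers in the labels pair the libraries could not be settled. Correlations of same-numbered pools' deviations ran from -0.0284 to 0.0922, and the own number was highest for 2 of 6. Correlations this low do not show whether pools of the states share ewes. With the replicate block 28 genes were called lower and 2 higher, THBS1 lost its call, LUM and COL11A2 (edgeR adjusted p = 0.0126) gained one, COL6A2 turned to 0.0612, and among the ratios COL4A6 to COL4A5 (0.49) and COL6A2 to COL6A1 (0.62) missed the threshold, both at exact p = 0.0625, where 6 pairs allow no p below 0.0312.

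Leaving out 1 library put the log2 difference of COL4A6 to COL4A5 at 0.35 to 0.61, missing the threshold in 3 cases (exact p = 0.0619), and that of LUM to DCN at 0.13 to 0.20, passed without lactation MM pool 2 (exact p = 0.0350) and late pregnancy HM pool 3 (exact p = 0.0446). For dam feeding, DESeq2 called 1 gene in late pregnancy and 1 for the interaction, the lactation libraries alone called 0, and leaving out 1 library, chosen after seeing the data for lactation and the interaction, gave 0 to 1 for each of those and 0 in late pregnancy; leaving out 1 pool leaves a lactation group with 1 sample, assumed to vary like the others. The causes were not tested. Depth limits genes under about 10 reads, mainly in lactation.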
